A study of Mus musculus with 15 samples.

Results

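The levels of 39 genes of the cell cycle and of DNA replication were compared across 5 kinds of mouse epithelial cells. The genes are a chosen list of 39 symbols among the 50600 genes in the deposited tables, and all 39 were found and passed the filter on low counts. They were read in each of 15 RNA-seq libraries, 3 per group. The study asked how epithelial cells of different organs differ in their expression of MHC class I. All cells came from male C57BL/6J mice aged 8 weeks, with no treatment or engineered allele given in the labels, and were isolated by flow cytometric sorting. Each library is 1 pool from 5 mice. There were 5 groups, of which 2 came from the thymus, its cortical (cTEC) and medullary (mTEC) epithelium, and the others from the epithelium of skin, of colon and of lung. Colon and lung libraries were built with KAPA RNA HyperPrep PolyA reagents, whereas cTEC, mTEC and skin libraries were built with KAPA RNA Stranded PolyA reagents. Differences between a group of one kit and a group of the other are therefore differences of tissue and kit that cannot be told apart. The tests below measure the spread between these pools, not between single mice.

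A dividing cell first licenses its replication origins by loading the MCM helicase with the help of CDC6 and CDT1, then copies its DNA in S phase, and later condenses and separates its chromosomes in mitosis. Genes of the first set are switched on by E2F factors as cells leave G1, while many mitotic genes are held down in resting cells and switched on late in the cycle by complexes that read CHR and CCAAT elements in their promoters. Colon crypts, the epidermis and growing hair follicles hold dividing cells, medullary thymic epithelium turns over continuously, and adult lung epithelium is largely quiescent. The 39 genes were divided into 15 that act at origins, at the fork, in nucleotide supply or as their regulators (the S phase genes) and 24 that act from G2 to cytokinesis (the mitotic genes). Ccna2, counted here as mitotic, encodes cyclin A2, which acts in both S phase and G2.

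The libraries held 12946533 to 41978665 reads counted in genes, and the 39 genes drew 6002 to 62545 of them. Levels are given as CPM, counts relative to the reads in genes scaled with TMM factors. The marker lists of cTEC, skin, colon and lung each summed highest in the group so labelled. The 7 colon markers summed to 12100 to 13900 CPM in colon and the 8 lung markers to 29900 to 37200 CPM in lung. The 7 skin markers summed to 29400 to 59900 CPM in skin, and the 7 cTEC markers to 6240 to 13800 CPM in cTEC against 2090 to 2510 in mTEC. The 7 mTEC markers, which include the keratins Krt5 and Krt14 of basal epithelia, summed to 6710 to 8700 CPM in mTEC and 2200 to 4280 in cTEC. In skin they summed to more, 12200 to 27700 CPM. Aire, a defining gene of mature mTEC, stood at 613, 242 and 587 CPM in the mTEC libraries and at 39.4, 26.4 and 67.1 in those of cTEC. Skin replicate 1 spent 14.8% of its gene reads on Gm42418, a gene that overlaps ribosomal RNA sequence, against 0.979% to 4.89% in the other 14 libraries. Skin replicate 3 stood apart from the other skin libraries in the genes described here and in hair follicle markers, so results with skin are given with and without it.

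The promoters of the S phase and mitotic genes differed in their short sequence elements. Promoters from 250 bases before to 50 bases after the annotated start were taken from RefSeq on GRCm38.p6, which held 33 of the 39 genes. No entry was found for Gins2, Mcm4, Ccna2, Aurkb, Tpx2 and Kif20a. Elements of 3 kinds were searched on both strands. The first kind, called an E2F word here, was TTCCCGC or its variant TTCGCGC, or else TTGCCGC or its variant TTGGCGC. The second, the CHR, was TTTGAA or its variant TTCGAA, and the third was CCAAT. E2F words can overlap one another on opposite strands, TTGGCGC can overlap a CCAAT box read on the other strand, and TTCGAA reads the same on both strands and was counted once. Among the 13 S phase promoters, 9 (69.2%) held an E2F word and 2 (15.4%) a CHR. Among the 20 mitotic promoters, 4 (20%) held an E2F word and 16 (80%) a CHR. Of 17492 protein-coding promoters, 12.2% held an E2F word and 18.2% a CHR. CCAAT was found in 9 of 13 S phase promoters (69.2%), 18 of 20 mitotic promoters (90%) and 39.2% of all promoters. A CHR and a CCAAT together were present in 16 of 20 mitotic promoters (80%), in 2 of 13 S phase promoters (15.4%) and in 7.47% of all promoters. A match is a description of the letters in the window, and binding was not measured here. No E2F word stood in the windows of Mcm2, E2f1, Tyms or Pcna.

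To show the elements in place, the 250 bases before the start are printed for 3 S phase genes, with their E2F words in capitals, and for 3 mitotic genes, with their CHR elements in capitals, each 5′ to 3′ on the gene's strand. Mcm5 encodes a helicase subunit (chr8:75109259-75109508, plus strand). Mcm6 encodes another helicase subunit (chr1:128359706-128359955, minus strand). Rrm2 encodes the small subunit of ribonucleotide reductase, which makes deoxynucleotides (chr12:24708004-24708253, plus strand). Mki67 encodes the Ki-67 protein, which coats mitotic chromosomes (chr7:135716380-135716629, minus strand). Top2a encodes DNA topoisomerase II alpha, which untangles sister chromosomes (chr11:99024190-99024439, minus strand). Cdk1 encodes the kinase that drives entry into mitosis (chr10:69352913-69353162, minus strand). In Mcm5, 3 E2F words fall in 2 stretches because 2 of them overlap. In Mcm6, 4 words pair up in 2 copies of the same stretch, and 1 more lies after the start. Top2a holds 4 CHR elements, and Mki67 and Cdk1 hold 2 each.
Mcm5: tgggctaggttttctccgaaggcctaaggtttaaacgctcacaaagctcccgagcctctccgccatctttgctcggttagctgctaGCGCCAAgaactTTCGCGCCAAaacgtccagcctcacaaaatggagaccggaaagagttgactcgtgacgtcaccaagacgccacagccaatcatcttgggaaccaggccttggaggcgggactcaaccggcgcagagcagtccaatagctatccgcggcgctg
Mcm6: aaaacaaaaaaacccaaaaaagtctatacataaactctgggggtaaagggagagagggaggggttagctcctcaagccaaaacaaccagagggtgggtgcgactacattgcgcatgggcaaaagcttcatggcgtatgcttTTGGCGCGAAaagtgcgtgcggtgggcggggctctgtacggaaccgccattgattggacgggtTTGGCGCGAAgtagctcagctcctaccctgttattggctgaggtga
Rrm2: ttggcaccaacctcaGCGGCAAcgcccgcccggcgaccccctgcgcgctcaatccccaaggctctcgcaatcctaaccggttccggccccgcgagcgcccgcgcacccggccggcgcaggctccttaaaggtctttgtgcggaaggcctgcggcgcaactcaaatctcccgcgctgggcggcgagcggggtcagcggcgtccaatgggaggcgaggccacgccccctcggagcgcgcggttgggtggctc
Mki67: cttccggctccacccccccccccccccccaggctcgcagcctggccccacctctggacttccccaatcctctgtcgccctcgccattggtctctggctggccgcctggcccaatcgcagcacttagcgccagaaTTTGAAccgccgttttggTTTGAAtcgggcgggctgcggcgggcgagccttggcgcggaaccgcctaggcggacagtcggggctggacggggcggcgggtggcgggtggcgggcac
Top2a: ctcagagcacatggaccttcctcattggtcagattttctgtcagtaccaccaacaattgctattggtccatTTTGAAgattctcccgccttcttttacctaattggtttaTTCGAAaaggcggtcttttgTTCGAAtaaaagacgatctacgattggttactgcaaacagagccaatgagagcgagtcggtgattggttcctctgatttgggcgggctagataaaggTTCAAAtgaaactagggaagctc
Cdk1: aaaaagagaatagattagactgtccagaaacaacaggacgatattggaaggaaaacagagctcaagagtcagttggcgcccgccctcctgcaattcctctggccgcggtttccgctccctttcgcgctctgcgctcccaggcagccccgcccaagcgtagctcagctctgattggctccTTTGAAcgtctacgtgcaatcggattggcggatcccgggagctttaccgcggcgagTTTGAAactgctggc

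**Figure D1:**
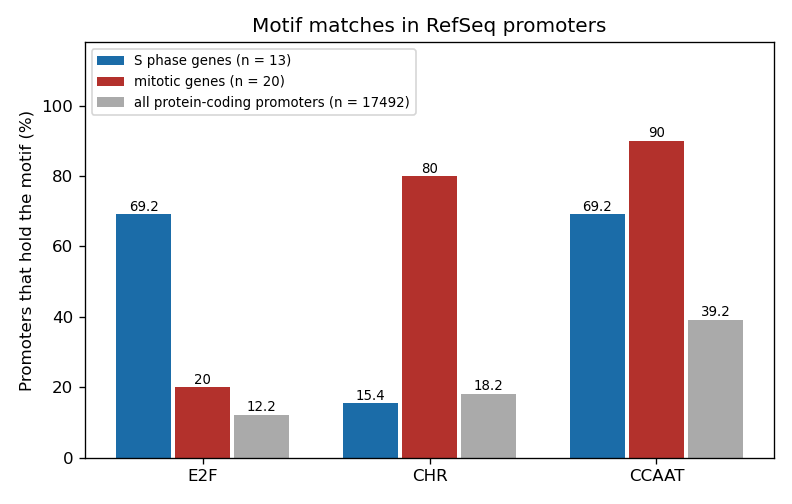
Bars give the share of promoters (%, y axis) that held an E2F word, a CHR or a CCAAT (x axis) among the S phase genes, the mitotic genes and all protein-coding promoters in RefSeq. The E2F share was highest for the S phase genes at 69.2% and the CHR share for the mitotic genes at 80%.

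The 39 genes were expressed at the highest summed level in colon and at the lowest in lung. Summed over the genes, the level was 1990 ± 117 CPM in colon (SD, n = 3), 1620 ± 1130 in skin, 820 ± 96.9 in mTEC, 405 ± 77.4 in cTEC and 286 ± 7.14 in lung. The skin libraries held 800, 1160 and 2910 CPM, so skin replicate 3 lay above every colon library and skin replicate 1 within the range of mTEC. The mean of skin replicates 1 and 2 was 979 CPM. Of the 39 genes, 24 had their highest group mean in colon, 13 in skin, 1 in mTEC (Mcm4) and 1 in lung (E2f1). Without skin replicate 3, 34 were highest in colon and 3 in skin. The lowest group mean lay in lung for 35 genes and in cTEC for 4 (Pcna, E2f1, Bub1 and Kif23). In these sorted bulk samples, fewer dividing cells and less of each RNA per dividing cell cannot be told apart. In the joint edgeR quasi-likelihood test of the 5 groups, with Benjamini-Hochberg adjustment over 19107 genes, 38 of the 39 genes passed, beside 90.6% of all genes tested. That share is near the background, so the pairs of groups carry the description below. Rrm1, the large subunit of ribonucleotide reductase, did not pass (adjusted p = 0.0743, edgeR).

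**Figure D2:**
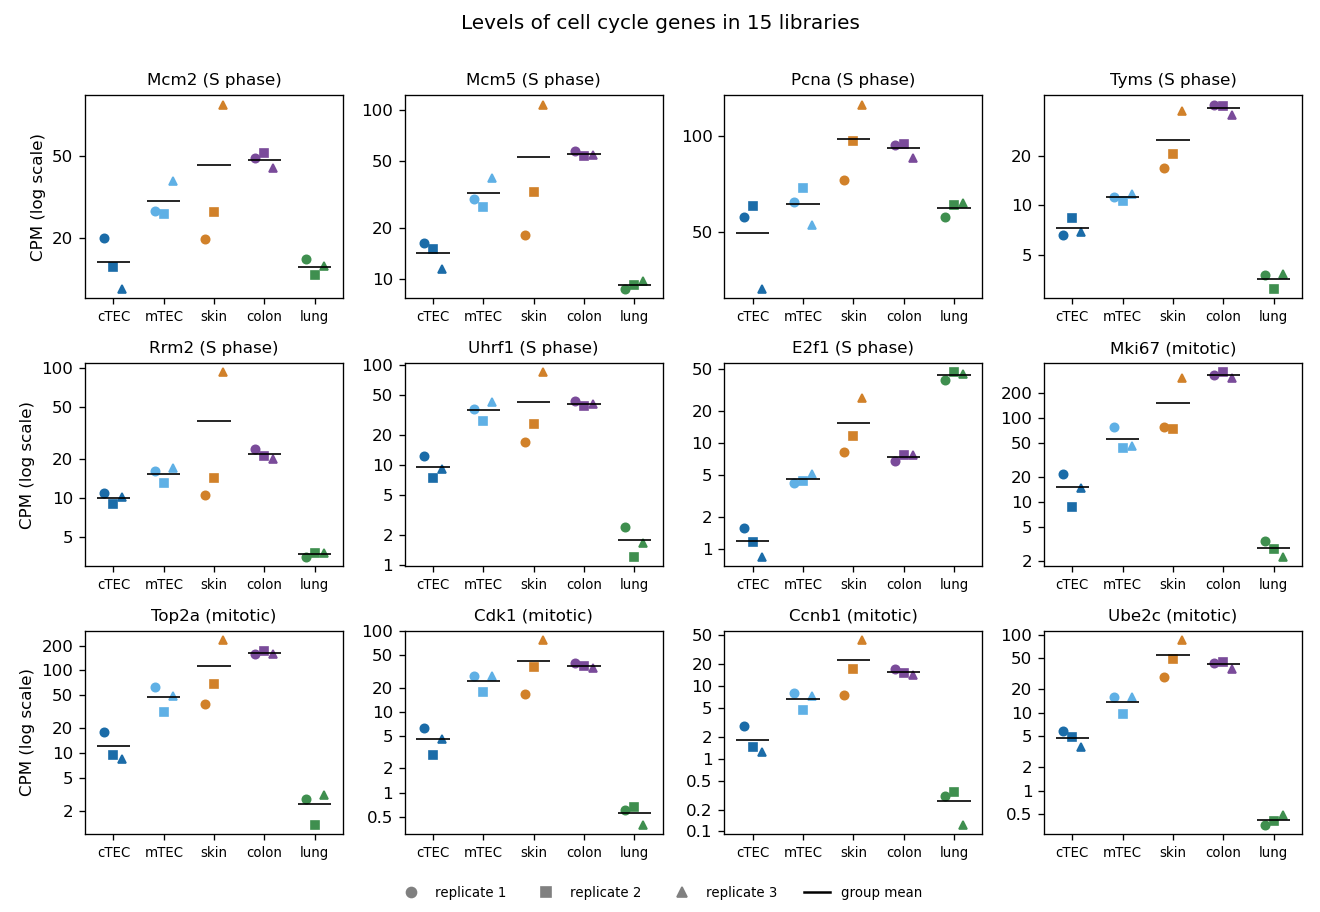
Each panel shows 1 gene with its CPM on a log axis in the 3 libraries of each group (x axis), with marker shapes for the replicates and a line at the group mean. Lung was lowest for most of the panels and highest for E2f1, and skin replicate 3 (triangle) stood above the other skin libraries in every panel.

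Among the S phase genes, the 6 subunits of the MCM helicase shared 1 order with an exception. Mcm2 (chr6:88883474-88898780, minus strand) stood at 19.9, 14.3 and 11.2 CPM in cTEC replicates 1 to 3, 27.1, 26.2 and 37.6 in mTEC, 19.7, 26.7 and 89.2 in skin, 48.8, 51.6 and 43.7 in colon, and 15.7, 13.1 and 14.5 in lung. Mcm5 (chr8:75109569-75128439, plus strand) stood at 16.2, 15.1 and 11.5 CPM in cTEC, 29.6, 26.7 and 39.6 in mTEC, 18.2, 32.8 and 107 in skin, 56.7, 53.3 and 54.0 in colon, and 8.70, 9.14 and 9.66 in lung. For both genes the mTEC libraries lay above all cTEC libraries and below all colon libraries, and the skin libraries spanned from below mTEC to above colon. Mcm6 (chr1:128331590-128359664, minus strand) stood at 32.3, 27.5 and 24.8 CPM in cTEC, 52.6, 47.8 and 53.7 in mTEC, 38.9, 39.3 and 91.1 in skin, 103, 97.8 and 92.8 in colon, and 18.1, 12.5 and 15.3 in lung. Colon was highest for Mcm6 without overlap with any other group, and lung was lowest without overlap. Group means of Mcm2, Mcm3, Mcm5, Mcm6 and Mcm7 ran from colon through skin, mTEC and cTEC to lung. The place of skin in that order rests on skin replicate 3, since the mean of skin replicates 1 and 2 lay below that of mTEC for all 5 genes. Without that library, Mcm3, Mcm6 and Mcm7 passed the edgeR test as higher in mTEC than in skin, by 0.50 ± 0.18 (log2, SE, adjusted p = 0.0284), 0.42 ± 0.16 (adjusted p = 0.0379) and 0.77 ± 0.21 (adjusted p = 0.00536). Mcm2 at 0.41 ± 0.24 (adjusted p = 0.153) and Mcm5 at 0.35 ± 0.24 (adjusted p = 0.220) did not. The median over all genes tested in that fit was 0.39. Mcm4, the exception, was highest in mTEC, and its highest group mean was 1.85 times its lowest, the smallest such ratio of the 39 genes. It did not pass the test in mTEC against cTEC, skin or colon.

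Per kilobase of effective transcript length, the licensing factors Cdc6 and Cdt1 had lower group means than each MCM subunit in all 5 groups. Gins2 did not, since in cTEC it stood at 5.29 CPM per kilobase and Mcm2 at 5.16. Cdc6 (chr11:98907801-98923940, plus strand), which loads MCM onto origins, stood at 3.24, 2.73 and 3.02 CPM in cTEC, 3.17, 3.13 and 3.64 in mTEC, 2.45, 2.03 and 7.46 in skin, 6.67, 6.57 and 6.20 in colon, and 1.57, 2.11 and 2.44 in lung. The cTEC and mTEC libraries overlapped, and colon lay above both. Gins2 (chr8:120578633-120589304, minus strand), a subunit of the replicative helicase's GINS complex, stood at 6.43, 6.52 and 6.38 CPM in cTEC, 7.84, 7.70 and 9.63 in mTEC, 16.6, 16.1 and 20.9 in skin, 12.8, 12.0 and 11.2 in colon, and 3.66, 3.93 and 5.26 in lung. The 5 groups did not overlap for Gins2, and skin replicate 3 exceeded the mean of the other skin libraries only 1.28-fold, the smallest ratio of the 39. Cdt1, the partner of CDC6 in licensing, had group means that spanned 7.61-fold, with skin highest and lung lowest; without skin replicate 3 colon was highest.

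The sliding clamp and the makers of nucleotides differed in how evenly they were expressed. Pcna (chr2:132249162-132253314, minus strand), the clamp that also serves DNA repair, stood at 56.0, 60.3 and 33.3 CPM in cTEC, 62.3, 68.6 and 52.7 in mTEC, 72.7, 96.1 and 125 in skin, 93.9, 94.6 and 85.4 in colon, and 55.7, 60.7 and 61.7 in lung. Its lung libraries overlapped with both thymic groups, and its group means spanned 1.96-fold. Tyms (chr5:30058202-30073617, minus strand), which makes thymidylate, stood at 6.66, 8.41 and 6.94 CPM in cTEC, 11.3, 10.6 and 11.8 in mTEC, 16.9, 20.5 and 37.2 in skin, 40.7, 40.2 and 35.0 in colon, and 3.78, 3.12 and 3.84 in lung. The groups stood in 1 order for Tyms without overlap except between skin replicate 3 and colon. Rrm2 (chr12:24708241-24714146, plus strand) stood at 10.9, 9.08 and 10.2 CPM in cTEC, 16.3, 13.0 and 17.0 in mTEC, 10.6, 14.4 and 92.8 in skin, 24.1, 21.2 and 20.2 in colon, and 3.54, 3.82 and 3.78 in lung. Skin replicate 3 held 7.41 times the Rrm2 of the other skin libraries, which overlapped with cTEC and mTEC. Uhrf1 (chr17:56303321-56323486, plus strand), which carries DNA methylation over to the new strand, stood at 12.3, 7.41 and 9.07 CPM in cTEC, 36.3, 27.4 and 43.2 in mTEC, 17.2, 25.5 and 84.4 in skin, 44.2, 38.7 and 40.7 in colon, and 2.43, 1.21 and 1.67 in lung. Its range of 23.9-fold was the widest among the S phase genes other than E2f1. Counts of Pcna, Ccnb1 and Uhrf1 are uncertain in level, because RSEM, which also places reads with several matches, gave 1.65, 1.96 and 1.15 times as many reads over all libraries. For the other 36 genes that ratio lay within 0.9 to 1.1.

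E2f1 was the one gene of the 39 that was highest in lung. It encodes a transcription factor that switches on replication genes (chr2:154559407-154569892, minus strand, overlapping no other annotated gene). E2f1 stood at 1.57, 1.17 and 0.840 CPM in cTEC, 4.17, 4.35 and 5.16 in mTEC, 8.19, 11.7 and 26.7 in skin, 6.80, 7.73 and 7.76 in colon, and 40.0, 46.7 and 45.0 in lung. The lung libraries lay above the other 12, and the cTEC libraries below them. Against colon, E2f1 was higher in lung by 2.56 ± 0.35 (log2, SE, adjusted p = 1.69e-05, edgeR). Against mTEC it was higher in lung by a log2 difference whose mTEC-minus-lung value was -3.26 ± 0.36 (adjusted p = 2.39e-06, edgeR). The cTEC-minus-lung value was -5.19 ± 0.41 (adjusted p = 8.08e-08, edgeR), and the skin-minus-lung value was -1.49 ± 0.34 (adjusted p = 0.00140, edgeR). In order of level, lung, skin and colon each differed from the next, colon and mTEC did not pass the test (adjusted p = 0.0830, edgeR), and mTEC differed from cTEC. The step from skin to colon rests on skin replicate 3, since without it the difference was 0.39 (log2) with an adjusted p of 0.166 (edgeR). Without colon replicate 1 it was 0.99 with an adjusted p of 0.0508 (edgeR). The step between lung and colon lies within 1 kit. E2f2, another activating E2F outside the 39 and named after its values were seen, was also highest in lung. It stood at 6.09, 5.07 and 4.70 CPM in cTEC, 13.5, 6.81 and 14.3 in mTEC, 12.6, 22.4 and 48.3 in skin, 27.8, 24.6 and 27.2 in colon, and 60.8, 61.9 and 60.2 in lung. It was higher in lung than in colon by 1.2 ± 0.36 (adjusted p = 0.0102, edgeR). Within the same lung libraries Mki67 was 3.44, 2.78 and 2.23 CPM and Cdk1 0.615, 0.665 and 0.402 CPM. Myeloid markers also summed higher in lung (7 of 7 with reads), at 1780 to 3320 CPM against 30.0 to 213 in the other groups, and most of that sum was Lyz2, a gene that alveolar type II cells express too, at 2800, 1690 and 1190 CPM. Csf1r, which encodes a receptor of macrophages, was 477, 591 and 550 CPM in lung and 0.533 to 9.50 in the other libraries. Of the 7 markers, only Lyz2 and Csf1r had their highest group mean in lung. Adgre1, another macrophage marker, was 0.308, 0.636 and 1.95 CPM in lung, against a mean of 3.92 in mTEC. Itgam was 0.0308, 0.231 and 0.0928 in lung, its lowest group. Cd68, Mpeg1 and Cd14 had means of 7.94, 12.2 and 14.7 CPM in lung. Their highest means were 14.3 in skin, 19.4 in mTEC and 41.6 in colon. The part of any myeloid cells in the E2f1 level was not tested.

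Most mitotic genes spanned wider ranges than most S phase genes. The highest group mean divided by the lowest had a median of 43.1 over the 24 mitotic genes (13.9 to 129) and of 5.72 over the 15 S phase genes (1.85 to 36.8). The ranges overlap, since E2f1 at 36.8 and Uhrf1 at 23.9 exceeded several mitotic genes, such as Aurka at 13.9. Mki67 (chr7:135689784-135716361, minus strand) stood at 21.6, 8.69 and 14.6 CPM in cTEC, 78.1, 44.5 and 46.2 in mTEC, 79.1, 74.2 and 297 in skin, 322, 348 and 301 in colon, and 3.44, 2.78 and 2.23 in lung. Only mTEC and skin overlapped, and each step in the order colon, skin, mTEC, cTEC and lung passed the edgeR test. The step between skin and mTEC rests on skin replicate 3, without which mTEC minus skin was -0.42 ± 0.30 (log2, SE, adjusted p = 0.237, edgeR). The highest group mean of Mki67 was 115 times its lowest. Top2a (chr11:98992943-99024189, minus strand) stood at 18.1, 9.36 and 8.57 CPM in cTEC, 63.2, 31.0 and 49.4 in mTEC, 39.7, 69.0 and 232 in skin, 157, 171 and 159 in colon, and 2.77, 1.36 and 3.13 in lung. Skin replicate 3 exceeded all colon libraries for Top2a, and lung lay below all others. Cdk1 (chr10:69335146-69352938, minus strand) stood at 6.38, 2.90 and 4.59 CPM in cTEC, 27.7, 17.5 and 28.2 in mTEC, 16.8, 35.5 and 77.3 in skin, 39.9, 36.6 and 34.5 in colon, and 0.615, 0.665 and 0.402 in lung. Its mTEC libraries lay above cTEC and below colon, and those of skin overlapped both mTEC and colon. Ccnb1 (chr13:100778650-100786570, minus strand), the cyclin B1 partner of CDK1, stood at 2.81, 1.45 and 1.23 CPM in cTEC, 7.94, 4.75 and 7.33 in mTEC, 7.44, 17.4 and 42.8 in skin, 17.0, 15.3 and 14.1 in colon, and 0.308, 0.347 and 0.124 in lung. As few as 4 reads lay behind the lowest of these values.

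Cyclin A2, the anaphase machinery and the spindle proteins followed the same broad order. Ccna2 stood at 4.62, 2.45 and 2.52 CPM in cTEC, 16.7, 8.88 and 13.9 in mTEC, 4.05, 19.3 and 55.9 in skin, 76.0, 78.0 and 59.7 in colon, and 1.78, 1.21 and 1.64 in lung. Colon lay above all 3 skin libraries, and skin replicate 1 within the cTEC range. Cdc20, the activator of the anaphase-promoting complex, stood at 7.04, 6.07 and 5.99 CPM in cTEC, 15.5, 11.3 and 20.2 in mTEC, 31.6, 44.3 and 93.9 in skin, 40.0, 33.7 and 31.9 in colon, and 1.78, 1.01 and 0.557 in lung. Ube2c, the ubiquitin-conjugating enzyme of that complex, stood at 5.81, 4.90 and 3.64 CPM in cTEC, 16.0, 9.60 and 16.2 in mTEC, 28.8, 49.7 and 85.8 in skin, 43.9, 45.0 and 37.1 in colon, and 0.369, 0.405 and 0.495 in lung. For Cdc20 and Ube2c, skin and colon overlapped, and both lay above mTEC. The highest group mean of Ube2c was 129 times its lowest, the widest ratio of the 39 genes. Without skin replicate 3 that ratio was 99.3, and the widest was the 127 of Aurkb. Cenpa, the histone H3 variant of centromeres, stood at 3.57, 1.89 and 3.02 CPM in cTEC, 7.29, 4.24 and 7.24 in mTEC, 27.2, 45.3 and 75.8 in skin, 37.8, 37.9 and 32.8 in colon, and 1.29, 1.30 and 1.36 in lung. Kif23, a kinesin of the central spindle, stood at 4.95, 1.89 and 2.86 CPM in cTEC, 14.0, 7.48 and 10.2 in mTEC, 26.8, 44.3 and 64.9 in skin, 55.8, 60.7 and 54.1 in colon, and 4.27, 4.66 and 3.81 in lung. Kif23 differed from most mitotic genes in that its lung libraries fell within the cTEC range. Prc1, which bundles the microtubules of the central spindle, stood at 8.57, 5.24 and 10.7 CPM in cTEC, 19.6, 10.7 and 13.1 in mTEC, 43.5, 51.1 and 101 in skin, 57.4, 56.7 and 51.4 in colon, and 2.37, 2.2 and 1.61 in lung.

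The remaining mitotic genes are the cyclin Ccnb2, the kinases Aurka, Aurkb, Plk1, Bub1 and Bub1b, the chromosomal passenger Birc5, the kinetochore proteins Cenpe and Cenpf, the motors Kif11 and Kif20a, and the spindle proteins Nusap1, Tpx2 and Hmmr. Their highest group mean was 13.9 times (Aurka) to 127 times (Aurkb) their lowest. Bub1 had no read in cTEC replicate 3, with 1.43 and 0.501 CPM in the other cTEC libraries. Per kilobase of effective transcript length, the scale on which genes can be compared, the highest of the 39 levels in colon were those of Pcna at 68.9, Top2a at 64.0, Tyms at 49.2 and Ube2c at 47.1 CPM per kilobase. In lung, Pcna stood at 44.8, E2f1 at 16.5 and Rrm1 at 15.6 CPM per kilobase, while no mitotic gene exceeded the 3.32 of Kif23. Some counts could include reads of a neighbour, since Cdt1, Rrm1, Mcm7, Top2a, Nusap1 and Tpx2 overlap another annotated gene on the same strand.

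Within the thymus, cell cycle genes were higher in mTEC than in cTEC. All 39 genes had a positive log2 fold change, from 0.12 (Rrm1) to 2.89 (Bub1). Of the 39, 24 were called higher and 0 lower, beside 15.2% of all genes called higher and 9.45% lower. The median was 1.45 on the log2 scale, against 0.07 over all genes tested. Of the mitotic genes 19 of 24 were higher, with a median of 1.64, and of the S phase genes 5 of 15, with a median of 0.70. The 5 were Mcm3, Mcm6, Cdt1, E2f1 and Uhrf1. The mTEC libraries lay above all cTEC libraries for 35 of 39 genes, beside 26.8% of all genes. Cdk1 rose by 2.40 ± 0.44 (log2, SE, adjusted p = 0.00182, edgeR). E2f1 rose by 1.92 ± 0.38 (adjusted p = 0.00275) and Kif23 by 1.70 ± 0.35 (adjusted p = 0.00379). Mki67 rose by 1.91 ± 0.47 (adjusted p = 0.00987) and Uhrf1 by 1.89 ± 0.46 (adjusted p = 0.00900). Among genes that did not pass, Cdc6 had a value of 0.14 ± 0.42 and Rrm2 of 0.61 ± 0.56.

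The number of calls in this pair depended on single libraries, though every gene called in those settings was higher in mTEC. It was 6 without mTEC replicate 1, 7 without cTEC replicate 2, 9 without cTEC replicate 3 and 12 without mTEC replicate 3. Leaving out skin libraries, which only share in the estimate of spread, raised it to 34 without skin replicate 3. The tests above took the cTEC and mTEC libraries as unpaired. With a replicate block of the thymic libraries alone, 21 genes were called, all higher in mTEC. Markers of thymocytes and T cells moved the other way. The 13 markers summed to 124 to 174 CPM in cTEC and to 44.0 to 83.8 in mTEC, with no marker at 0 in either group. Cd8a was 20.8, 15.8 and 15.6 CPM in cTEC and 5.73, 1.67 and 2.60 in mTEC. Markers of B cells summed to 26.2 to 85.9 CPM in cTEC, with 1 of 5 at 0, and to 16.1 to 51.2 in mTEC, and the 7 myeloid markers to 68.5 to 81.0 and 131 to 213. Their part in the cell cycle levels was not tested.

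**Figure D3:**
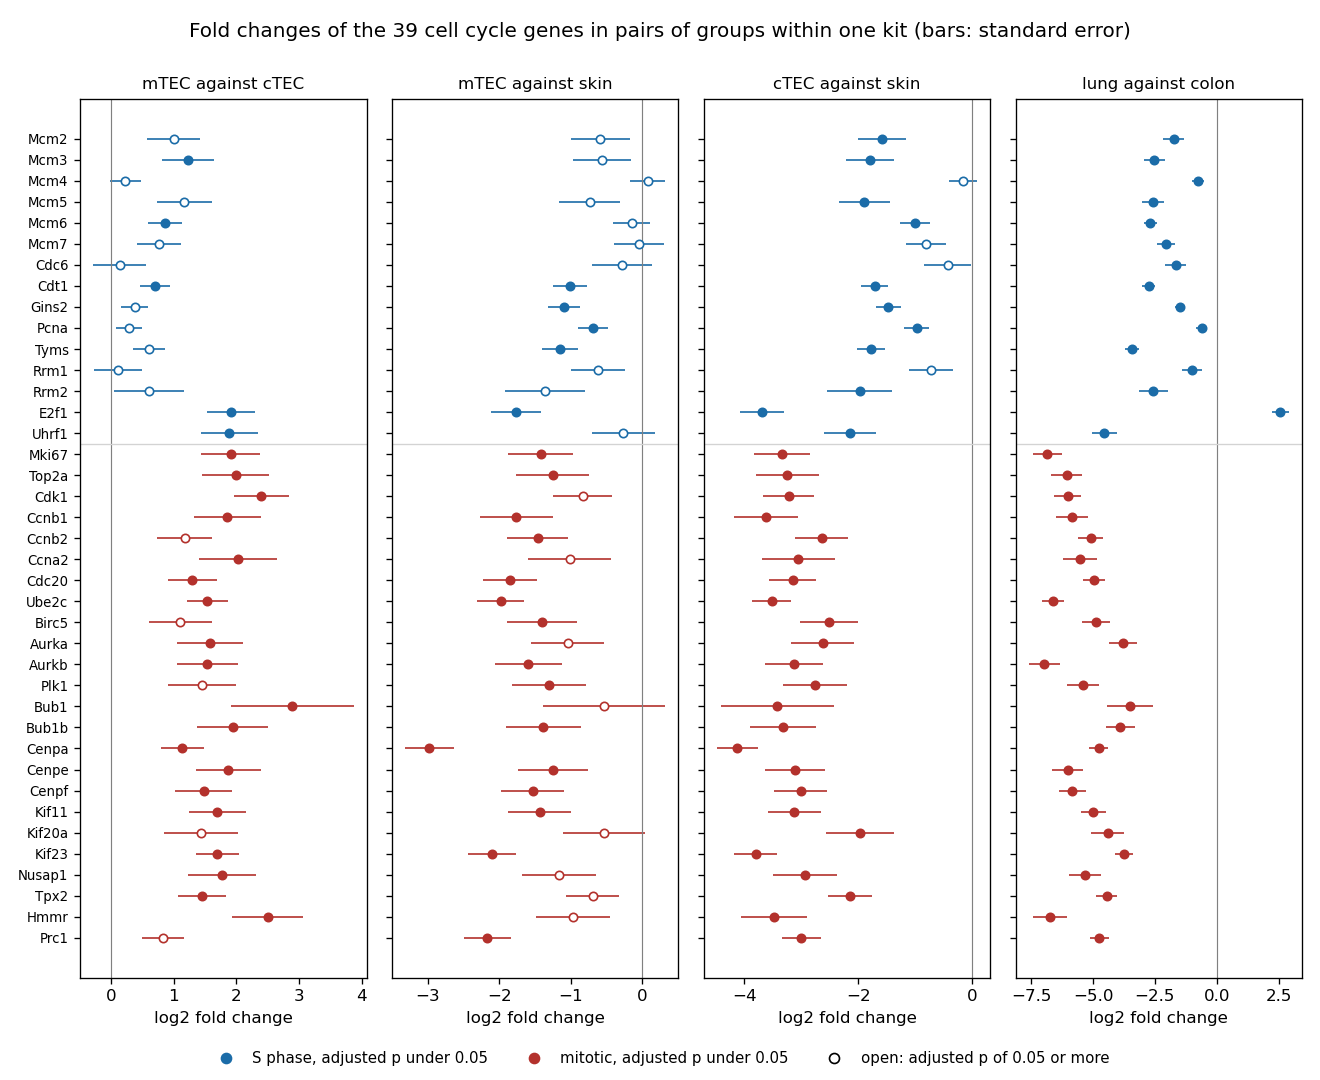
Points give the log2 fold change (x axis) of each of the 39 genes (y axis) with its standard error in the 4 pairs of groups within 1 kit, S phase genes in blue above the grey line and mitotic genes in red below it, with filled points for an adjusted p under 0.05 (edgeR). The mitotic genes lie farther from 0 than most S phase genes, and E2f1 is the only gene higher in lung than in colon.

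With all 3 skin libraries, both thymic groups were below skin, within the same kit. For mTEC the size of the difference depended on skin replicate 3, as described below. In cTEC against skin, 35 of 39 genes were lower and 0 higher, beside 23.9% of all genes called lower and 32.5% higher. The median was -2.76 (log2) for the 39, -1.58 for the S phase genes (11 of 15 lower), -3.13 for the mitotic genes (24 of 24 lower) and 0.19 for all genes. The 4 genes that did not pass were Mcm4, Mcm7, Cdc6 and Rrm1. Cenpa fell by 4.12 ± 0.36 (log2, SE, adjusted p = 4.35e-07, edgeR), Kif23 by 3.80 ± 0.37 (adjusted p = 1.17e-06) and Ube2c by 3.52 ± 0.35 (adjusted p = 1.43e-06). Libraries did not overlap for 30 of 39, beside 22.5% of all genes. Without skin replicate 3, 32 genes were called and all 32 were among the 35, at a median of -1.74, beside 22.5% of all genes called lower.

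In mTEC against skin, 21 of 39 genes were lower and 0 higher, beside 22.4% of all genes called lower and 34.6% higher. The median was -1.15 (log2), with -0.61 for the S phase genes (5 of 15 lower), -1.39 for the mitotic genes (16 of 24 lower) and 0.22 for all genes. Libraries did not overlap for 10 of 39, a share near the 21.6% of all genes. Cenpa fell by 2.98 ± 0.34 (log2, SE, adjusted p = 5.40e-06, edgeR), Prc1 by 2.17 ± 0.33 (adjusted p = 7.40e-05) and Kif23 by 2.10 ± 0.34 (adjusted p = 1.28e-04).

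The picture for mTEC and skin changed when skin replicate 3 was left out. Skin then rested on replicates 1 and 2. Of all 15 libraries, skin replicate 1 had the largest shares of reads outside genes (46.9%) and on Gm42418 (14.8%). The median of the 39 genes moved from -1.15 to -0.25, and that of the S phase genes from -0.61 to 0.33. That of all genes moved from 0.22 to 0.39, so the S phase median did not exceed it. Then 9 genes were lower, a share near the 21.6% of all genes, and 5 were higher, beside 38.8%. All 9 were among the 21, namely Cdt1, Gins2, Tyms, E2f1, Cdc20, Ube2c, Cenpa, Kif23 and Prc1. The 5 higher in mTEC were Mcm3, Mcm6, Mcm7, Uhrf1 and Bub1, none of which passed with all 3 skin libraries. Mcm7, for example, was -0.04 ± 0.35 (log2, adjusted p = 0.927, edgeR) with all libraries and 0.77 ± 0.21 (adjusted p = 0.00536) without skin replicate 3. Cenpa was -2.50 ± 0.29 (adjusted p = 4.72e-06) without it. Without skin replicate 1, 33 genes were lower in mTEC, and 13 differed without mTEC replicate 2 or mTEC replicate 3. With 10 genes called when only the mTEC and skin libraries were fitted, the count also depended on sharing the spread.

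Colon and lung, prepared with the same kit, differed most. In lung against colon, 38 of 39 genes were lower and 1, E2f1, was higher, beside 28.3% of all genes called lower and 30.4% higher. The median was -4.45 (log2), with -2.04 for the S phase genes, -5.20 for the mitotic genes and 0.00 for all genes. The libraries did not overlap for any of the 39, beside 35.9% of all genes with lung below and 37.9% with lung above. Ube2c fell by 6.62 ± 0.43 (log2, SE, adjusted p = 7.79e-09, edgeR), Tyms by 3.43 ± 0.27 (adjusted p = 5.57e-08) and Cenpa by 4.77 ± 0.38 (adjusted p = 6.27e-08). At the other end, Pcna fell by 0.62 ± 0.21 (adjusted p = 0.0214) and Mcm4 by 0.76 ± 0.25 (adjusted p = 0.0154). The smallest mitotic difference, that of Bub1 at -3.51 ± 0.93, was larger in size than those of all S phase genes but Uhrf1 at -4.54 ± 0.52. Markers of crypt stem and transit-amplifying cells (8 of 8 with reads) summed to 554 to 688 CPM in colon and 182 to 219 in lung. Among them only Ephb3 went the other way, at 137, 159 and 132 CPM in lung and 47.5, 64.1 and 56.2 in colon. The sum was not particular to colon, since it was 584 to 679 CPM in skin and 438 to 599 in mTEC. The part of crypt cells in the difference was not tested.

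Comparisons between the kits carry tissue and kit together. In cTEC against colon 36 of 39 genes were lower and 0 higher, beside 30.5% and 34.6% of all genes, at a median of -2.75 (log2). The strongest calls were Kif23 at -4.12 ± 0.38 (adjusted p = 2.74e-07, edgeR), Cenpa at -3.67 ± 0.36 (adjusted p = 5.41e-07) and Tyms at -2.40 ± 0.26 (adjusted p = 1.40e-06). In mTEC against colon 24 of 39 were lower and 0 higher, beside 29.1% and 36.9%, at a median of -1.21. Cenpa, Tyms and Kif23 led there as well, with Cenpa at -2.53 ± 0.34 (adjusted p = 1.29e-05), and the mTEC libraries lay below colon for 36 of 39 genes, beside 34.8% of all genes. Against lung, 34 of 39 genes were higher in mTEC and 1 lower, beside 34.9% and 28.6%, at a median of 2.81. In cTEC against lung 27 were higher and 1 lower, beside 30.9% and 28.6%, at a median of 1.29. In skin against lung 36 were higher and 1 lower, beside 26.7% and 33.7%, at a median of 4.15. The 1 gene lower than in lung was E2f1 each time. Among the genes above lung, Ube2c had the smallest p in all 3 comparisons, with log2 fold changes of 5.03 ± 0.41 in mTEC (adjusted p = 1.04e-07), 3.49 ± 0.40 in cTEC (adjusted p = 4.07e-06) and 7.0 ± 0.43 in skin (adjusted p = 5.46e-09). These comparisons share their lung or colon libraries and are not independent of one another.

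Skin against colon gave no single direction. Of 39 genes, 2 were higher in skin (E2f1 and Gins2) and 4 lower (Mcm6, Tyms, Ccna2 and Mki67), beside 27.4% and 30.8% of all genes. The median was -0.08 (log2). Gins2 was higher by 0.57 ± 0.21 (adjusted p = 0.0318, edgeR), while Mcm6 fell by 0.79 ± 0.26 (adjusted p = 0.0184) and Ccna2 by 1.42 ± 0.58 (adjusted p = 0.0468). With DESeq2 size factors or upper quartile factors 2 were higher and 1 lower, and the median of the 39 was -0.01 and 0.06. Without skin replicate 3, 25 genes were lower and 0 higher, beside 32.2% and 26.1%, at a median of -1.06. Without skin replicate 1, 6 were higher and 0 lower. The count of called genes was 1 without colon replicate 1, 2 without skin replicate 2 or colon replicate 2, and 3 without colon replicate 3.

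S phase and mitotic genes moved by different amounts. In each of the 10 pairs of groups the median log2 fold change of the 24 mitotic genes was larger in size than that of the 15 S phase genes. Summed CPM of the S phase genes ran from 253 ± 9.04 in lung to 675 ± 30.5 in colon (SD, n = 3), and that of the mitotic genes from 32.7 ± 2.18 to 1320 ± 89.7. In between, S phase genes summed to 293 ± 52.0 CPM in cTEC, to 457 ± 21.1 in mTEC and to 652 ± 413 in skin, and mitotic genes to 112 ± 36.5, 363 ± 96.7 and 970 ± 717. A balance of the classes was formed from log2 CPM centred for each gene on the mean of the 5 group means, as the mean of the S phase genes minus the mean of the mitotic genes. It was 1.92 ± 0.13 in lung, then 0.67 ± 0.36 in cTEC, -0.28 ± 0.37 in mTEC, -0.91 ± 0.31 in skin and -1.39 ± 0.05 in colon. Its value is relative to these 5 groups, and 0 has no meaning of its own. Single libraries gave 1.78, 1.93 and 2.04 in lung, 0.29, 1.02 and 0.69 in cTEC, -0.67, 0.07 and -0.23 in mTEC, -0.57, -1.0 and -1.16 in skin, and -1.39, -1.45 and -1.35 in colon. Lung, cTEC and mTEC did not overlap, skin overlapped with mTEC, and colon lay below all skin libraries. Skin replicates 1 and 2 had a mean of -0.79, so the balance in skin moved little without skin replicate 3, unlike its summed level. As a score over chosen genes it carries no p-value.

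**Figure D4:**
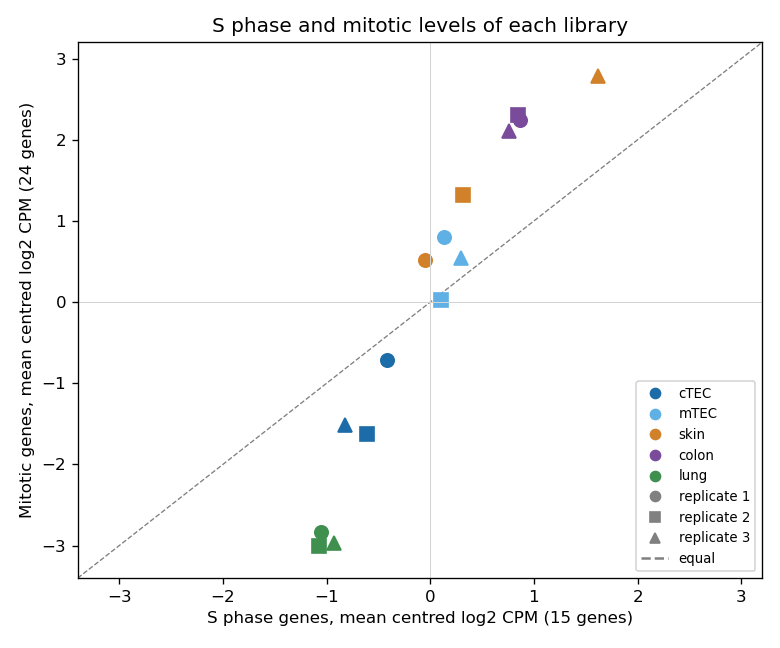
Each point is 1 library, with the mean centred log2 CPM of the 15 S phase genes on the x axis and of the 24 mitotic genes on the y axis, colours for the groups, shapes for the replicates and a dashed line where both are equal. Mitotic levels spread more widely than S phase levels, from the lung libraries at the lower left to skin replicate 3 at the upper right.

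Skin replicate 3 held the highest level of the 3 skin libraries for 39 of 39 genes, beside 34.2% of all genes tested. It was the highest of all 15 libraries for 29 of 39, beside 7.13% of all genes, among them 11 S phase and 18 mitotic genes. Its level divided by the mean of skin replicates 1 and 2 had a median of 3.16 over the 39 genes, 3.16 over the S phase genes and 3.28 over the mitotic genes, against 0.945 over all genes. The ratios ran from 1.28 for Gins2 to 13.3 for Bub1, whose levels were 1.69, 1.06 and 18.3 CPM in the 3 skin libraries. After Bub1 came Rrm2 at 7.41 and Kif20a, a kinesin of cytokinesis, at 5.13. The low end held Gins2, Pcna at 1.48 and Mcm4 at 1.51.

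Markers of the growing hair follicle moved with it. The 12 markers of hair matrix and inner root sheath summed to 18.8, 21.7 and 1910 CPM in skin replicates 1 to 3, and each of the 12 was highest in replicate 3. Krt71, an inner root sheath keratin, stood at 0, 0.265 and 565 CPM, and Krt25, another, at 1.04, 0.530 and 378 CPM. Shh, the signal of matrix cells, stood at 0, 0.177 and 39.4 CPM, Msx2 at 6.49, 5.04 and 115, Hoxc13 at 0, 1.59 and 57.9, and Lef1 at 0, 0.619 and 41.0. The 9 markers of basal and stem cells of the interfollicular epidermis and follicle summed to 35200, 42200 and 18000 CPM, so that replicate 3 held 0.464 times the mean of the others. Yet 2 of the 9 were highest in replicate 3, Cd34 at 112, 47.9 and 262 CPM and Lrig1 at 184, 140 and 200 CPM. Melanocyte markers summed to 5.27, 3.27 and 30.4 CPM, with 4 of 5 highest in replicate 3, and the 7 fibroblast markers to 3970, 1260 and 7620. In no other group did the hair matrix and inner root sheath markers sum above 96.8 CPM. The part of any of these cells in the level of the cell cycle genes was not tested. The 3 skin libraries are separate pools of 5 mice with the same labels.

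**Figure D5:**
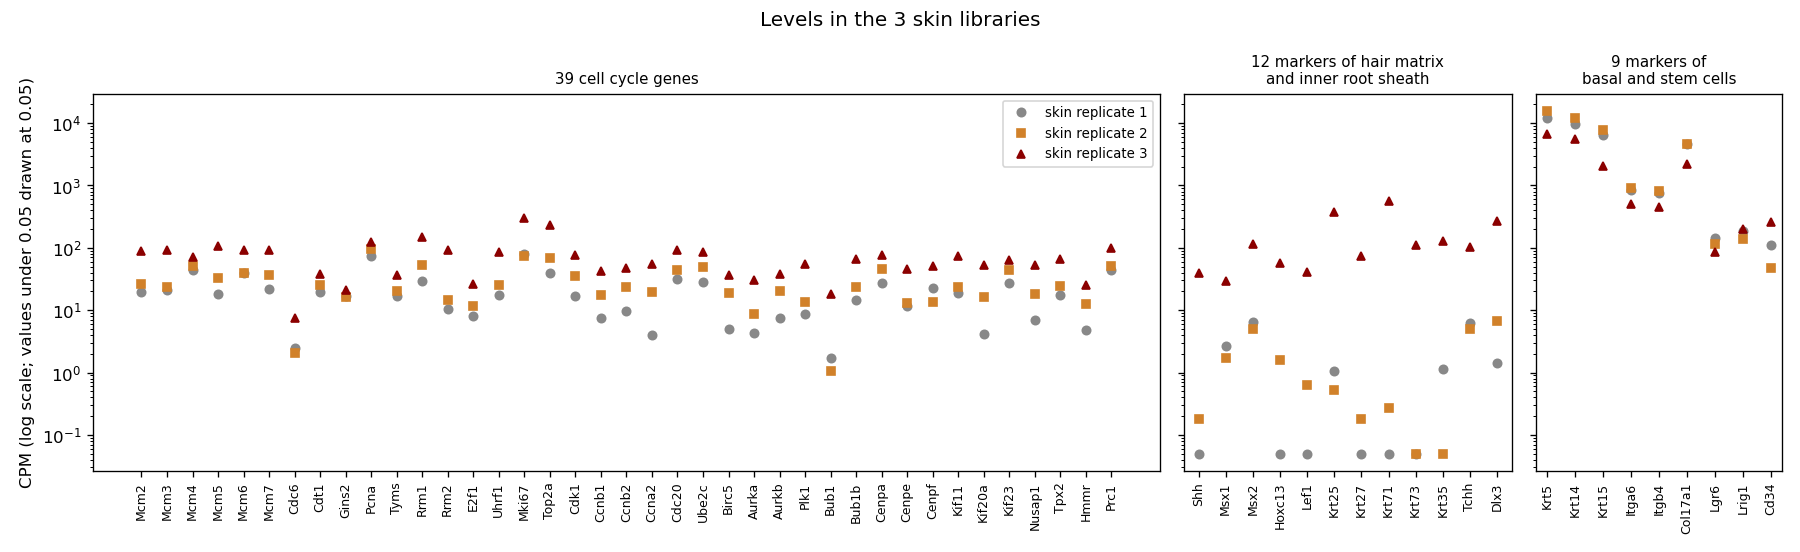
Points give CPM (log y axis, values under 0.05 drawn at 0.05) of the 39 cell cycle genes, the 12 markers of hair matrix and inner root sheath and the 9 markers of basal and stem cells (x axis) in the 3 skin libraries. Skin replicate 3 is highest for all 39 cell cycle genes and all 12 hair markers, which summed to 1910 CPM there against 18.8 and 21.7 CPM.

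Genes outside the 39 but in the same processes were read from 3 further lists. Of 42 other replication genes, 5 were higher and 0 lower in mTEC against cTEC, 3 higher and 12 lower in mTEC against skin, and 2 higher and 29 lower in lung against colon. The share of all genes called was 15.2% higher and 9.45% lower in the first pair, 34.6% and 22.4% in the second, and 30.4% and 28.3% in the third. The medians were 0.33, -0.36 and -1.41 (log2), against 0.07, 0.22 and 0.00 over all genes. In mTEC against cTEC, the share of this list called higher did not exceed that of all genes. Without skin replicate 3 the median in mTEC against skin changed sign to 0.21, with 12 higher and 6 lower. Of all genes, 38.8% were higher and 21.6% lower in that fit, at a median of 0.39. These genes were thus not raised in mTEC over skin beyond all genes. The genes named below for mTEC against skin, from this and the next 2 lists, kept their call and direction in that pair without skin replicate 3. Prim1, the catalytic subunit of primase, was 10.9 ± 0.596 CPM in mTEC (SD, n = 3), 4.94 ± 1.52 in cTEC and 24.4 ± 8.45 in skin. It was higher in mTEC than in cTEC by 1.14 ± 0.28 (log2, SE, adjusted p = 0.00992, edgeR) and lower than in skin at -1.16 ± 0.28 (adjusted p = 0.00241). Cdc7, the kinase that fires origins, was higher in mTEC than in cTEC by 1.5 ± 0.38 (adjusted p = 0.0115). Against skin, Orc3 and Gins3 were higher in mTEC by 1.07 ± 0.15 (adjusted p = 4.17e-05) and 1.15 ± 0.43 (adjusted p = 0.0317), and Orc6 was lower at -0.76 ± 0.18 (adjusted p = 0.00263). In lung against colon, Tk1, the salvage thymidine kinase, fell by 4.24 ± 0.37 (adjusted p = 1.99e-07), from 17.6 ± 1.26 CPM in colon to 0.930 ± 0.50 in lung. Pola1, the catalytic subunit of DNA polymerase alpha, fell by 2.57 ± 0.21 (adjusted p = 7.89e-08). The 2 that were higher in lung were Gins4 by 0.73 ± 0.17 (adjusted p = 0.00164) and Rpa1 by 0.64 ± 0.16 (adjusted p = 0.00374).

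Of 53 other mitotic genes, 22 were higher and 1 lower in mTEC against cTEC, 0 higher and 27 lower in mTEC against skin, and 1 higher and 50 lower in lung against colon, at medians of 1.36, -1.12 and -4.88 (log2). The shares of all genes called higher and lower in these pairs were 15.2% and 9.45%, 34.6% and 22.4%, and 30.4% and 28.3%. In mTEC against skin without skin replicate 3, 4 were higher and 14 lower at a median of -0.28. Of all genes, 38.8% and 21.6% were, at a median of 0.39. Aspm, a spindle pole protein, rose by 2.49 ± 0.35 in mTEC against cTEC (SE, adjusted p = 2.67e-04, edgeR) and Espl1, the separase, by 1.75 ± 0.28 (adjusted p = 7.64e-04). Espl1 was lower in mTEC than in skin at -3.00 ± 0.28 (adjusted p = 6.54e-07), as was Anln, a cytokinesis scaffold, at -2.36 ± 0.30 (adjusted p = 1.41e-05). Kif4, a chromosome-bound kinesin, fell by 6.40 ± 0.37 in lung against colon (adjusted p = 2.36e-09), and Hjurp, the chaperone of CENP-A, by 1.87 ± 0.12 (adjusted p = 5.32e-09). Pttg1, which encodes securin, the inhibitor of separase, was the exception in both pairs. It stood at 68.3 ± 11.8 CPM in cTEC and 53.1 ± 2.65 in lung (SD, n = 3), above 32.6 ± 1.88 in mTEC, 31.6 ± 8.82 in skin and 21.1 ± 2.30 in colon. It was lower in mTEC than in cTEC at -1.07 ± 0.19 (adjusted p = 0.00152) and higher in lung than in colon by 1.33 ± 0.19 (adjusted p = 3.10e-05).

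The third list held 26 genes of G1 control, namely the D cyclins and their kinases, CDK inhibitors, the retinoblastoma family, E2f2 to E2f8, the cyclins Ccng1 and Ccng2, and Myc and Mycn. Of these, 5 were higher and 3 lower in mTEC against cTEC, 5 and 10 in mTEC against skin, and 7 and 10 in lung against colon, with medians of 0.22, -0.03 and -0.27 (log2). Of all genes, 15.2% and 9.45%, 34.6% and 22.4%, and 30.4% and 28.3% were called higher and lower in these pairs. With skin replicate 3 left out, 9 were higher and 6 lower in mTEC against skin at a median of 0.11. Of all genes, 38.8% and 21.6% were, at a median of 0.39. The D cyclins, which start the passage through G1, moved in different directions. Ccnd1 and Ccnd2 were higher in mTEC than in cTEC by 1.18 ± 0.22 (SE, adjusted p = 0.00187, edgeR) and 0.98 ± 0.21 (adjusted p = 0.00465), and Ccnd3 was lower at -0.74 ± 0.17 (adjusted p = 0.00647). E2f8, an atypical E2F that represses transcription, was 31.0 ± 6.89 CPM in cTEC (SD, n = 3) and 4.48 ± 0.442 in mTEC, a log2 fold change of -2.79 ± 0.58 (adjusted p = 0.00383). E2f1, an activating E2F, was higher in mTEC. Cdkn1c, the CDK inhibitor p57, was higher in mTEC than in skin by 2.74 ± 0.36 (adjusted p = 1.89e-05) and higher in lung than in colon by 3.22 ± 0.36 (adjusted p = 2.37e-06). Cdkn2b, the inhibitor p15 of the D cyclin kinases, was 170 ± 26.9 CPM in lung and 22.8 ± 7.80 in colon, higher by 2.90 ± 0.32 (adjusted p = 2.13e-06). Cdkn1a, the inhibitor p21, was 945 ± 289 CPM in skin and 150 ± 42.4 in mTEC, a value of -2.66 ± 0.29 for mTEC against skin (adjusted p = 3.51e-06). Cdk6, a D cyclin kinase, was lower in mTEC than in skin at -2.44 ± 0.18 (adjusted p = 6.52e-08) and lower in lung than in colon at -2.29 ± 0.17 (adjusted p = 4.12e-08). Ccng1 was higher in mTEC than in skin by 1.52 ± 0.19 (adjusted p = 1.34e-05), and Ccng2 was lower in lung than in colon at -2.02 ± 0.18 (adjusted p = 2.26e-07).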

How the data were processed

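RNA was sequenced from 15 sorted epithelial samples. The submitters' processing notes name bcl2fastq 2.20, STAR 2.5.1b, RSEM 1.2.28 and the build GRCm38. The release of the gene models was not given in the sources used. The deposited counts are whole reads per gene in 1 unstranded and 2 stranded columns, with 24.2% to 46.9% of reads per library on lines outside genes, which were left out. The deposited expected counts of RSEM, rounded, were an alternative, and its deposited lengths in bases gave levels per kilobase. Reads were not marked by molecular identifiers, so they are not independent molecules.

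The sense column was used. Symbols and coordinates came from GENCODE on GRCm38, which matched 50376 of 50600 identifiers. Genes with low counts were removed with filterByExpr by group, leaving 19107. TMM factors of edgeR 4.0.16 (R 4.3.3) scaled the counts, and 1 quasi-likelihood model with a term per group was fitted to all 15 libraries, with Benjamini-Hochberg adjustment and calls at an adjusted p under 0.05. The standard error is the size of the log2 fold change divided by the square root of F. Log2 CPM used a prior count of 2. On simulated counts of mTEC against cTEC (17886 genes), 23.0% of 2-fold and 96.0% of 4-fold changes were recovered, with 5 false calls. DESeq2 1.42.0 was an alternative, beside other scalings, filters, priors, a replicate block and leaving out each library.

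Libraries of the same replicate number were checked for pairing by the correlation of their deviations from the group means. All 3 pairs of cTEC and mTEC exceeded 0.1, at 0.29, 0.28 and 0.16, so these groups count as paired, from the data only. The main fit did not use this pairing. Elsewhere 1 of 27 pairs did. The members and lists were chosen with earlier results of these data known. Per-library values were given for 12 chosen genes and for up to 3 genes per direction with the smallest p in each pair of groups, and up to 2 per direction from each further list in 3 pairs.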

Additional observations from a re-analysis of the deposited data

How the results depend on the processing

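Over 6840 combinations of a called gene's fold change with an alternative, 6450 stayed on their side of the threshold, 390 lost the call and 0 reversed. Leaving out 1 library gave 6 to 34 called genes of 39 in mTEC against cTEC, 13 to 33 in mTEC against skin and 1 to 25 in skin against colon. The other 7 pairs gave 32 to 37 in cTEC against skin, 36 to 39 in lung against colon, 18 to 34 in mTEC against colon, 34 to 38 in cTEC against colon, 34 to 37 in mTEC against lung, 21 to 31 in cTEC against lung and 34 to 39 in skin against lung. With only the 2 groups in the fit, 10 genes were called in mTEC against skin and 1 in skin against colon; the latter gave 3 with DESeq2 size factors and 3 with upper quartile factors. Upper quartile factors moved the median of all genes in mTEC against colon from 0.18 to 0.40 (log2) and that of the 39 genes from -1.21 to -0.98. The summed level in colon was 1840 CPM with upper quartile factors and 1870 with RSEM counts, and in lung 273 with DESeq2 size factors, 264 with upper quartile factors, 298 with RSEM counts and 288 to 295 without 1 lung library. With the median over genes, the balance of S phase and mitotic genes was -1.28 in colon and 1.63 in lung. The causes were not tested. With the replicate number as a block over all libraries, 23 genes were called in mTEC against cTEC and 17 in mTEC against skin; with a block of the thymic libraries alone, added after seeing the data, 21 were called in mTEC against cTEC, 20 in mTEC against skin and 21 in mTEC against colon. Neither block moved the count of called genes in any of the 10 pairs by over 1.5 times. Depth limits the lowest levels, such as Ccnb1, Aurkb and Bub1 in single libraries with 0 to 4 reads.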
